A study of Homo sapiens with 2 samples.

Results

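Reads on nuclear ribosomal RNA (rRNA) features, most of them 5S rRNA genes and their dispersed copies, were examined in RNA recovered with hTrmt13. The members are the features whose biotype ends in rRNA, without the mitochondrial rRNA genes: 530 of the 741078 features listed. They comprise 17 RNA5S genes, 497 copies named RNA5SP, 7 features of 5.8S rRNA, and 9 other rRNA features. Of these 9, 6 are copies named 5S_rRNA on chromosomes and 3 are reference sequences (5S, 18S and 28S). The reference sequence of 5.8S was counted with the 5.8S features.

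The samples were CLIP-seq libraries of MDA-MB-231, an established human breast carcinoma line, with no genetic change or treatment named in the labels. CLIP-seq pulls a protein down by antibody and sequences the RNA attached to it; the stated aim was to find the tRNAs bound by hTrmt13, a tRNA methyltransferase. There was 1 group with 2 replicates, each with a count table for the reads called R1 and another for R2, and 0 control libraries are among those used, so no value here is an enrichment. The R1 tables held 27907799 and 20590398 counts, and nothing in the labels places the replicates in separate cultures, so their spread may be technical.

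5S rRNA is a small RNA of the large ribosomal subunit. RNA polymerase III makes it from a tandem array of near-identical genes, whose promoter lies inside the transcribed sequence and is bound by TFIIIA. The other cytosolic rRNAs (18S, 5.8S and 28S) are cut from a single precursor made by RNA polymerase I. Many shortened or mutated copies of 5S rRNA, here the RNA5SP features, are scattered over the chromosomes, and short reads from near-identical copies are hard to place.

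Sequences were compared to show how alike these features are. They are GENCODE release 29 transcripts (GRCh38), matched by gene identifier and accepted where the length equalled that of the listed hg19 span, which held for 510 of the 530 members. RNA5S1, the first gene of the array, has 119 bases, and 16 of the 17 RNA5S genes share its sequence. RNA5S9 and the copy RNA5SP202 each differ from it at 1 position. The 5S_rRNA copy on chromosome X differs at 5 positions and that on chromosome 12 at 13. RNA5SP242 kept 89.9% of the RNA5S1 positions, with a different 5′ end. RNA5SP387 and RNA5SP245 follow RNA5S1 over most of their length and end in bases that mostly do not align. RNA5SP248 carries extra bases at its 5′ end and matched 79.0% of RNA5S1.

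Nuclear rRNA features held a small share of the counts. They had 5839 R1 counts in replicate 1 and 4232 in replicate 2, or 0.0207% ± 0.000261 of the library total (SD, n = 2). The library total is the sum of the counts of all listed features. Reads of 1 locus are counted in every feature over it, so this total is not a number of reads. The exact Clopper-Pearson 95% interval was 0.0204% to 0.0215% in replicate 1 and 0.0199% to 0.0212% in replicate 2, so the replicates overlapped. No molecular identifiers are named in the labels, and such intervals cover counting error only. Cytosolic tRNA features, the class the assay was aimed at, held 58.2% ± 2.59 of the same counts, and the 2 mitochondrial rRNA genes held 0.207% ± 0.0184 (SD, n = 2 each).

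Most members had no R1 count. R1 counts fell on 212 of the 530, counts in any of the 4 tables on 231, and 54 had a mean R1 count of at least 10. Over all 741078 features the same numbers were 78377, 106648 and 18723, a smaller part of the whole in each case. Only RNA5SP202, the chromosome X copy and RNA5SP248 reached a mean of 100. These 3 took 70.2% ± 1.17 of the nuclear rRNA counts (SD, n = 2). By class, the RNA5SP copies took 86.7% ± 1.13, the RNA5S genes 7.39% ± 0.248, the other rRNA features 5.20% ± 0.795 and the 5.8S features 0.744% ± 0.0837 (SD, n = 2 each).

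**Figure D1:**
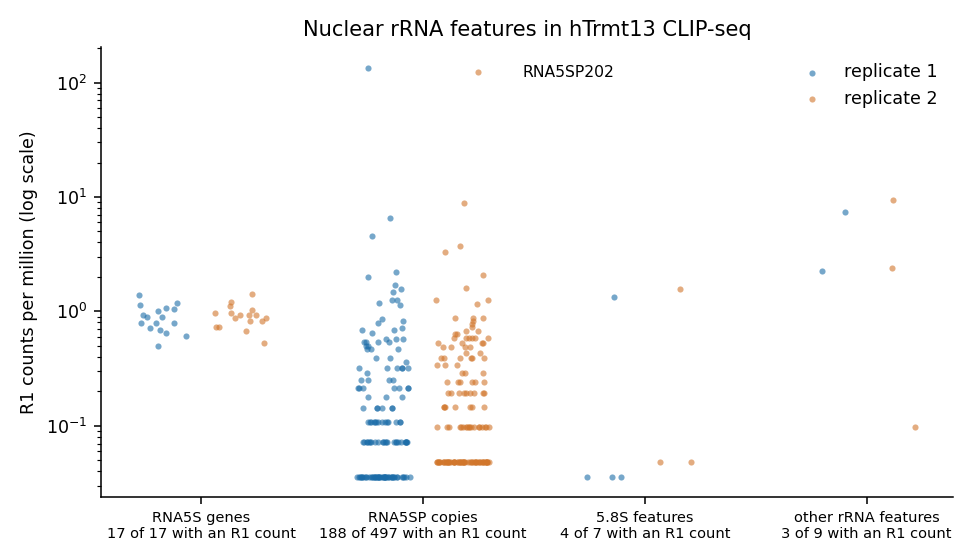
R1 CPM (each count divided by the library total, in parts per 1000000) of each member on a log axis, by class and replicate; each point is 1 member in 1 library, members at 0 are not drawn, and the horizontal scatter within a column has no meaning. RNA5SP202 stands at 134 and 124 CPM, while the 17 RNA5S genes lie close together near 1.

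The RNA5S genes, the array that supplies 5S rRNA, were all detected at similar low counts. They lie on hg19 at chr1:228746015-228781905 on the minus strand, with starts 2215 to 2242 bases apart (median 2241), and overlap no other listed gene. In R1 the lowest, median and highest counts over the 17 genes were 14, 25 and 39 in replicate 1 and 11, 19 and 29 in replicate 2. Their sum was 421 and 320, which is 15.3 ± 0.322 CPM (SD, n = 2).

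RNA5S13 was highest by mean of the CPM values, with 39 and 19 counts (1.16 ± 0.336 CPM), and RNA5S1 lowest, with 20 and 11 (0.625 ± 0.129 CPM; SD, n = 2 each). RNA5S17, in the middle of the order, had 29 and 14 (0.860 ± 0.254 CPM). In R1 RNA5S13 had 1.40 and 0.923 CPM, and RNA5S1 had 0.717 and 0.534. These 2 were picked as the extremes on these same values, so their lack of overlap in R1 carries no weight. In R2 RNA5S13 had 13 and 7 counts and RNA5S1 had 7 and 14, so their order there was not the same in both libraries. The 2 genes share 1 sequence. The 16 genes of one sequence cannot be told apart by reads that lie inside it. Their R1 counts had a variance 1.83 times their mean in replicate 1 and 0.654 times in replicate 2. In R2 these ratios were 1.08 and 0.962. Random assignment of independent reads gives a ratio that scatters around 1 with only 16 genes. The R1 sums of the 16 genes are 396 and 291 counts.

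RNA5S9, the gene with its own sequence, differed from its neighbours in R2 (chosen after its values were seen). Its R1 counts were 25 and 29, the first inside and the second just above the range of the 16 identical genes, which ran from 14 to 39 and from 11 to 25. Its R2 counts were 41 and 30, whereas those of the other 16 ran from 7 to 23 and from 7 to 19. RNA5S9 was thus the highest of the 17 in R2 in both replicates, with no overlap with the others within a library.

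**Figure D2:**
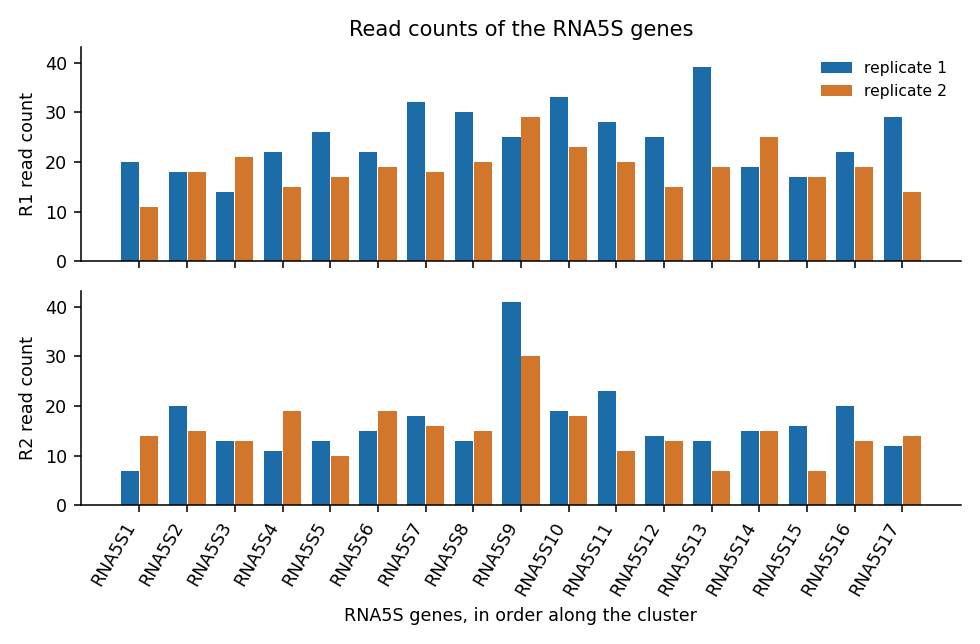
Read counts of the 17 RNA5S genes in order along the cluster, from R1 (upper panel) and R2 (lower panel), with 1 bar per replicate. RNA5S9 has the highest R2 bar in both replicates, at 41 and 30.

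Among the RNA5SP copies, RNA5SP202 held most of the 5107 and 3634 counts. This copy lies at chr6:4428197-4428315 on the plus strand (ENSG00000201185.1) and had 3753 and 2560 R1 counts, or 129 ± 7.18 CPM (SD, n = 2). It ranked 345 of the 741078 features and took 64.3% and 60.5% of all nuclear rRNA counts. Its count was 8.91 times the summed count of the 17 RNA5S genes in replicate 1 and 8 times in replicate 2, all of the same length. In R2 it had 1466 and 1051 counts, 5.18 and 4.22 times the RNA5S sum.

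A single base separates RNA5SP202 from 16 of the RNA5S genes. The placing of reads with several equal matches was not given in the sources used here, so counts of single copies are uncertain. RNA5SP202 lies within the long non-coding RNA RP11-274H24.2, which is annotated on the other strand and had 3757 and 2570 counts. The counts of RP11-274H24.2, which spans far more of the chromosome, exceed those of RNA5SP202 by 4 and 10. Without RNA5SP202 the other 496 copies had 1354 and 1074 counts, or 50.3 ± 2.58 CPM (SD, n = 2), still more than the other classes together, and 187 of them had an R1 count.

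The next copies were lower by more than the spread between replicates. The 5S_rRNA copy on chromosome X (ENSG00000272351.1, chr X:68892323-68892441, plus strand; RNA5SP506 in GENCODE 29) had 208 and 193 counts, or 8.41 ± 1.36 CPM (SD, n = 2). It lies inside EDA, the gene of the TNF-family ligand ectodysplasin, on the same strand, and EDA had 208 and 239 further counts. RNA5SP248 (chr7:140086581-140086707, minus strand) had 184 and 181 counts, 7.69 ± 1.55 CPM, within SLC37A3 on the same strand, a gene of the sugar-phosphate transporter family with 300 and 395 counts in all. The means of the 2 copies differ by less than either SD, though the chromosome X copy had more counts in both libraries.

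RNA5SP242 (chr7:128337493-128337610, plus strand) had 126 and 68 counts, or 3.91 ± 0.857 CPM (SD, n = 2), and overlaps no other listed gene. RNA5SP245 (chr7:129667117-129667237, plus strand) had 62 and 77 counts, or 2.98 ± 1.07 CPM, opposite ZC3HC1, which had 125 and 154. The 5S_rRNA copy on chromosome 12 (ENSG00000272435.1, chr12:34358634-34358752, plus strand; RNA5SP357 in GENCODE 29) had 63 and 49 counts, or 2.32 ± 0.0865 CPM. It lies opposite the long non-coding RNA RP11-313F23.4, whose 64 and 53 counts exceed it by 1 and 4. RNA5SP242 had more counts than RNA5SP245 in replicate 1 and fewer in replicate 2, so their order was not the same in both libraries.

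The rest of the 12 highest RNA5SP copies lay between 0.967 and 1.89 CPM. RNA5SP387 had 47 and 43 R1 counts, inside FLVCR2 on the same strand, a gene of a choline and heme transporter family. RNA5SP295 had 56 and 33, opposite PTBP3, which codes for an RNA-binding protein. RNA5SP354 had 44 and 26, inside ITPR2, the gene of a calcium release channel. These 3 reached 1.89 ± 0.286, 1.80 ± 0.286 and 1.42 ± 0.222 CPM, or 17.8, 14.9 and 10.4 CPM per kilobase, against at most 9.75 for any single RNA5S gene. RNA5SP348 had 35 and 26 counts, RNA5SP19 had 32 and 24, and RNA5SP208 had 33 and 18, and none of them overlaps another listed gene. RNA5SP152 had 41 and 18, opposite ACOX3, which had 105 and 107. RNA5SP298 had 35 and 14, inside DIP2C, which lies on the same strand and had 349 and 415. RNA5SP19 lies at chr1:228743494-228743602, beside the RNA5S array and on its other strand. Per kilobase, RNA5SP348, listed at only 37 bases, was at 34.0 CPM, RNA5SP208 at 13.2, RNA5SP152 at 10.7, RNA5SP19 at 10.6 and RNA5SP298 at 8.71. Thus 4 of these 5 were also above the highest single RNA5S gene on that scale. The reads of 1 sequence are spread over 16 RNA5S genes, however. Together these 16 had 14.2 CPM, not scaled by length, more than the CPM of any copy in this paragraph.

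The 5.8S features were nearly empty apart from RNA5-8SP6. It had 37 and 32 R1 counts, or 1.44 ± 0.161 CPM (SD, n = 2), at chrY:10037764-10037915 on the plus strand, and 20 and 10 R2 counts. The placing of reads with several matches was not given in the sources used here, so whether these reads came from that locus is uncertain. RNA5-8SP2 and RNA5-8SP4 had 1 count in each replicate, and RNA5-8SP5 had 1 in replicate 1 and 0 in replicate 2. RNA5-8SP3, RNA5-8SP7 and the 5.8S reference sequence were at 0 in R1, which allows up to 0.107 CPM in replicate 1 and 0.146 CPM in replicate 2 (3 counts of the total). RNA5-8SP6 is the copy closest to 5.8S rRNA among the 5 with a sequence: 143 of the 153 bases of the RNA5-8SN genes of GENCODE 29 matched (93.5%), and the longest exact stretch was 61 bases. The sequences show where it departs, with capitals for bases not aligned to an identical base of RNA5-8SN.
RNA5-8SN: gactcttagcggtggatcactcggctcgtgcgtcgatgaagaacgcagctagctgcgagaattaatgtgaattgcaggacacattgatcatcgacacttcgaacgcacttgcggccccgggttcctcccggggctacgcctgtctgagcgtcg
RNA5-8SP6: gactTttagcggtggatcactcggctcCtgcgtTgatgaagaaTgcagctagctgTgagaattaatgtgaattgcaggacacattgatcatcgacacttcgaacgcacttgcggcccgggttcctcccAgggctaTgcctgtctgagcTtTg

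The remaining rRNA features were at or near 0. The 5S_rRNA copy on chromosome 14 had 0 and 2 R1 counts, and the other 3 chromosomal copies of that name had none. All 4 reference sequences (5S, 18S, 5.8S and 28S) had 0 counts in all 4 tables, with the same upper limit in R1. Whether rRNA reads were removed before alignment was not given in the sources used here, so these zeros describe the listed reference sequences only.

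Likeness to RNA5S1 and the presence of counts went together among the dispersed 5S copies. Of the 520 members of 5S type, 505 had a sequence, and 488 of them lie outside the RNA5S array. R1 counts were found on 17.2% of the 29 copies that matched under 60% of RNA5S1, on 21.9% of 155 copies at 60 to 70%, on 39.5% of 195 at 70 to 80%, on 60.8% of 102 at 80 to 90%, and on 6 of 7 at 90% or more. Copies with a mean count of at least 10 matched a median of 80.7% (35 copies), those with fewer counts 77.3% (149 copies), and those without R1 counts 70.6% (304 copies). These shares are descriptions of copies in the same 2 libraries, with lengths that also differ: the medians were 118, 117 and 113 bases.

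**Figure D3:**
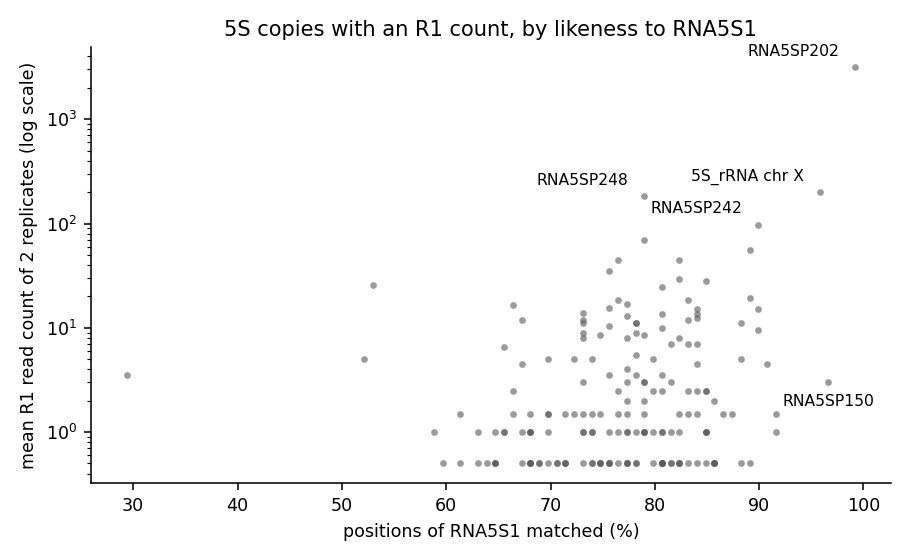
Mean R1 count of 2 replicates, on a log axis, against the percent of RNA5S1 positions matched, for 5S copies outside the RNA5S array with an R1 count; each point is 1 copy. Counts spread widely at any likeness: RNA5SP202 at 99.2% has 3753 and 2560 counts, and RNA5SP150 at 96.6% has 2 and 4.

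Likeness alone did not order the closest copies. Next to RNA5SP202, RNA5SP150 matched 115 of 119 bases but had 2 and 4 R1 counts (chosen after its values were seen, like the other names in this paragraph except the chromosome X copy). Its R2 counts were 116 in replicate 1 and 5 in replicate 2, so 1 library held nearly all of them. The chromosome X copy matched 114 bases and had 208 and 193. RNA5SP263 and RNA5SP85 matched 109 bases with 3 and 0 and with 0 and 2 counts, RNA5SP77 matched 108 with 5 and 4, and RNA5SP513, also at 108, had none in any table.

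Unbroken stretches of RNA5S1 were longer in copies with more counts. The longest exact stretch shared with RNA5S1 had a median of 46 bases in copies with a mean count of at least 10, 22 in those with fewer and 16 in those with none. A stretch of 40 bases or more was found in 21 of 35, 7 of 149 and 0 of 304, and the longest among copies without R1 counts was 29 bases. In 16 of the 35, 28 of the 149 and 33 of the 304 copies this stretch ended at position 90, as in RNA5SP242, RNA5SP387 and RNA5SP295.

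The window kept most often differed between the count bands. Among all windows of 20 bases, the one found in most of the 35 higher copies was at positions 57 to 76, counted from 1 at the 5′ end of RNA5S1. It was present exactly in 25 of the 35 (71.4%), in 9 of the 149 with fewer counts (6.04%) and in 0 of the 304 without. In the 149 the most common windows were at positions 68 to 87 and 69 to 88 (24.8% each; 22 and 21 of the 35), and in the 304 the most common was at 65 to 84 (10.9%; 21 of the 35). All 34 copies that hold the window at 57 to 76 had R1 counts, against 150 of the 454 that lack it. That window was picked as the highest on these same counts, so this is a description. The first window, positions 1 to 20, was present in 28.6%, 7.38% and 1.97% of the 3 bands, the last, positions 100 to 119, in 14.3%, 3.36% and 0.329%, and positions 87 to 106, among the least common, in 1 of the 35.

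**Figure D4:**
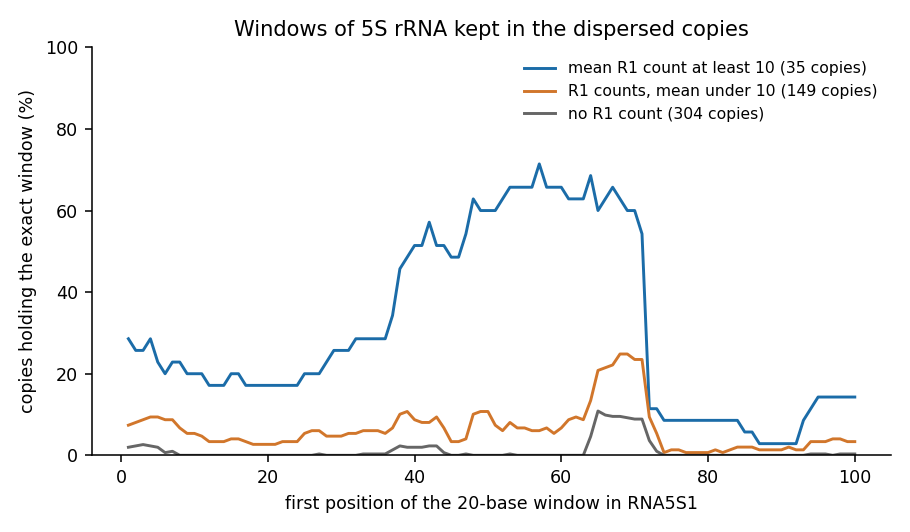
Percent of 5S copies outside the array that hold each 20-base window of RNA5S1 exactly, by the first position of the window, with 1 line per count band. The line for copies with a mean R1 count of at least 10 peaks at 71.4% for the window starting at position 57 and drops where windows reach past position 90.

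The 10 higher copies that lack the window included RNA5SP248, RNA5SP245, the chromosome 12 copy, RNA5SP354, RNA5SP152 and RNA5SP19. Together the 10 had 486 and 421 R1 counts but only 31 and 21 R2 counts. The 25 that hold it had 4542 and 3144 R1 counts and 1702 and 1217 R2 counts. Most of these were on RNA5SP202 alone, with 3753 and 2560 in R1 and 1466 and 1051 in R2. Single copies departed from these sums in both groups: RNA5SP152 and RNA5SP19, which lack the window, had R2 counts at 39.0% and 35.7% of R1, and the chromosome X copy, which holds it, was at 3.99%. Among copies with a mean under 10 the order was the other way. Those lacking the window had 258 and 245 R1 against 224 and 89 R2 counts, and those holding it 48 and 37 against 20 and 9. RNA5SP150, which lacks the window, alone had 2 and 4 of these R1 and 116 and 5 of these R2 counts. The order in replicate 1 thus rests largely on this copy.

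R2 reads set the members apart from one another. Over all features the R2 total was 40.3% of the R1 total in replicate 1 and 42.7% in replicate 2, and tRNA features were at 42.7% and 41.5%. Nuclear rRNA features as a whole were at 39.3% and 38.5%. The RNA5S genes were higher at 67.2% and 77.8%, the RNA5SP copies were at 38.8% and 37.4%, and the other rRNA features were at 3.69% and 2.87%. These gaps from the RNA5S genes were larger than the spread between the replicates.

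Several copies had R1 counts and almost no R2 counts. RNA5SP248 had 1 and 0 R2 counts beside 184 and 181 in R1, and RNA5SP245 had 0 and 2 beside 62 and 77. The chromosome X copy had 9 and 7 beside 208 and 193, and the chromosome 12 copy had 0 and 0 beside 63 and 49. In all, 8 of the 54 members with a mean R1 count of at least 10 (14.8%) had R2 counts under 10% of R1, against 262 of 18723 such features (1.40%). The other 4 were RNA5SP354, RNA5SP143, RNA5SP140 and RNA5SP500 (the last 2 chosen after their values were seen). Per member, the median R2 count was 68% of R1 for the RNA5S genes and 32.1% for the RNA5SP copies, against 85.5% for all features with that mean.

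**Figure D5:**
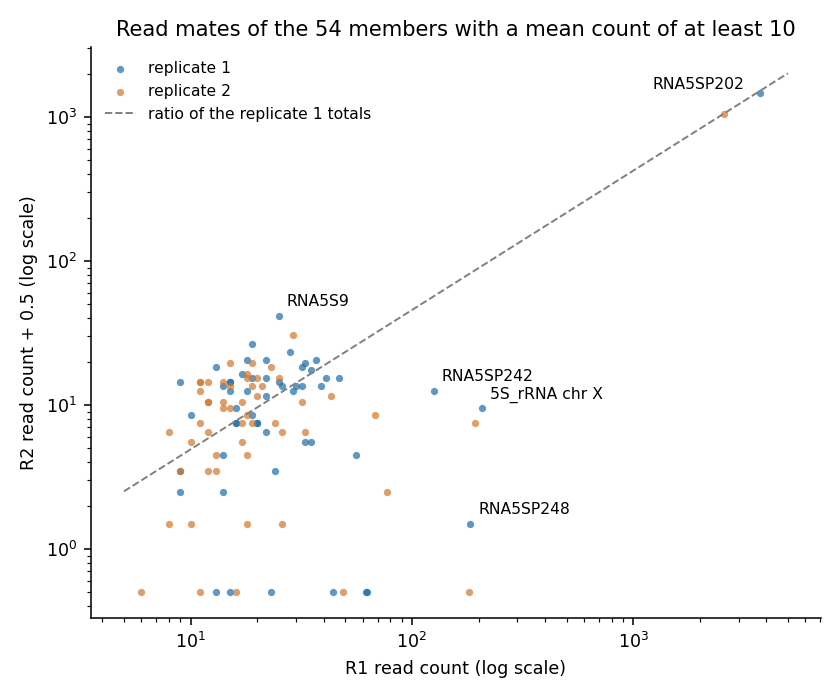
R2 count plus 0.5 against R1 count, both on log axes, for the 54 members with a mean R1 count of at least 10; each point is 1 member in 1 library, and the dashed line is the ratio of the replicate 1 totals. RNA5SP248 and the chromosome X copy fall far below the line, with 1 and 9 R2 counts in replicate 1, and RNA5S9 lies above it with 41.

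Overlap with other listed genes was common. No member overlapped a tRNA feature and 1 overlapped a piRNA. Of the 530 members, 216 overlapped no other gene and had 927 and 694 R1 counts, and 139 lay inside or across a gene on the same strand, with 651 and 568. A gene on the other strand only was found for 160, with 4183 and 2931 counts, or 430 and 371 without RNA5SP202. Another 15 overlapped genes on both strands, with 78 and 39. The use of strand in counting was not given in the sources used here, so reads of a copy and of the gene opposite it cannot be told apart.

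The 2 libraries divided the members' reads nearly as they divided their totals. Over the 54 members the median log2 ratio of replicate 2 to replicate 1 was -0.03 when scaled by library totals. Over all 18723 features whose mean count reached 10, the median was 1.09 on that scale, and that of 473 tRNA features was -0.01. TMM scaling, which sets the typical feature near 0, moved every ratio down by 1.09, to -1.12 for the members, -1.16 for the RNA5S genes, -1.14 for the RNA5SP copies and -1.10 for tRNA. The median of the members thus lay near that of tRNA and far from that of all features on either scale.

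Each split went through a two-sided exact binomial test, with Benjamini-Hochberg adjustment over the 18723 features, which compares 1 library with 1 other and covers counting error only. With TMM scaling 20 of the 54 members (37.0%) were lower in replicate 2 and 0 higher. Among all features 6.52% were lower and 2.29% higher, and among the 473 tRNA features 90.5% were lower and 0 higher. With library totals 1 member was lower (1.85%) and 4 were higher (7.41%), against 1.44% and 81.3% among all features. On that scale 37.4% of the tRNA features were lower and 32.6% higher. At an unadjusted p under 0.05, 34 members were lower and 0 higher with TMM, and DESeq2 size factors also gave 20 and 0. RNA5SP134, with 24 and 9 counts, had the largest TMM departure (-2.02, adjusted p = 0.00202), followed by RNA5SP298 with 35 and 14 (-1.95, adjusted p = 0.000125) and RNA5SP143 with 15 and 6 (-1.91, adjusted p = 0.0374), all from the exact binomial test. The member lower by library totals was RNA5SP202 (-0.11, adjusted p = 0.00331 by the same exact test), and the 4 higher were RNA5SP245, RNA5SP248, the chromosome X copy and RNA5S3 (the last chosen after its values were seen). Across the 54 members the replicates had a Pearson correlation of 0.965 in log2(CPM + 0.5) and a Spearman correlation of 0.777, given as a description of features in shared libraries.

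Genes whose products act on 5S and other rRNA were counted as well, over their whole spans. The 5S ribonucleoprotein and assembly list had a median of 0.300 CPM per kilobase, the polymerase III list 0.190, the list for 5.8S end maturation 0.212 and the rRNA modification list 0.364, against 0.0448 for all protein-coding genes. All 10, 21, 19 and 15 genes found in these lists had a mean count of at least 10, which 65.1% of protein-coding genes had.

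RPL5, which carries 5S rRNA into the ribosome, had 17.6 ± 11.8 CPM. MDM2, the p53 ubiquitin ligase that the free 5S particle binds, had 12.9 ± 7.19, and TROVE2, the Ro protein that binds misfolded 5S rRNA, had 9.57 ± 5.42. GTF3C1, a TFIIIC subunit, had 26.2 ± 13.9 CPM, BDP1 of TFIIIB had 11.8 ± 5.64, and the polymerase III subunit POLR3A had 11.6 ± 5.83. For the exosome helicase SKIV2L2 the level was 12.1 ± 5.79 and for the exonuclease XRN2 10.3 ± 5.37, while the rRNA methyltransferase FBL had 16.2 ± 10.4 and its partner NOP56 had 14.3 ± 8.83 (SD, n = 2 each). These genes had more counts in replicate 2 than in replicate 1 (RPL5 had 258 and 535), as did protein-coding genes in general, whose median log2 ratio by library totals was 1.11, against -0.07 for the RNA5S genes. In R1 the mitochondrial rRNA genes MT-RNR1, with 47409 and 39145 counts, and MT-RNR2, with 6615 and 6064, each exceeded all nuclear rRNA features together. In R2 the nuclear rRNA features had 2293 and 1629 counts. MT-RNR1 was below them there with 1209 and 839, and MT-RNR2 was above them with 3472 and 4016. As a check of the labelled line, VIM had 24.4 ± 15.1 CPM and MSN 11.4 ± 5.88, while the other 4 markers listed for it were low: SPARC at 1.21, CAV1 at 0.937, AXL at 0.578 and CD44 at 0.385. Of the genes listed as low or absent in this line, ERBB2 at 6.92 and CDH1 at 1.96 lay above these 4, EPCAM was at 1.01, GATA3 at 0.998, ESR1 at 0.557 and PGR at 0.0971. Among markers of other cell types, HBB, GFAP and PTPRC lay at 0.381, 0.352 and 0.331 CPM, and ALB had no counts. CLIP levels are not expression.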

How the data were processed

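The authors deposited raw read counts for each listed feature in 4 tables (R1 and R2 of each of 2 replicates of 1 group, MDA-MB-231). The tools were Bowtie2 2.3.5.1 and, on the hg19 (GRCh37) build, bedtools 2.24.0, per the submitters' processing notes. Alignment options, read filters, the placing of reads with several matches and the use of strand were not given in the sources used here. R1 and R2 were read as the mates of a read pair. Of 741091 lines, 13 repeats were dropped. R1 held 27907799 and 20590398 counts, and R2 held 11246823 and 8793089.

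Shares and CPM came from R1, with SD over 2 replicates and exact Clopper-Pearson 95% intervals. Sequences are GENCODE 29 transcripts on GRCh38; positions are hg19, 1-based, from the tables. The letters of the 5S sequences are not reported here. Copies were aligned to RNA5S1 with Biopython 1.88 (match 1, mismatch -1, gap opening -3, gap extension -1, end gaps 0), or position by position for 119-base copies with at least 70% matches. The replicate split was tested with scipy 1.17.1 by an exact binomial test against TMM-scaled sizes (edgeR 4.0.16), at an adjusted p of 0.05. On simulated counts with counting error only, over 18723 features, that test called 62% of 2-fold and 98% of 4-fold changes and 0.0216% of unchanged features. Alternatives were the R2 table, both tables summed, overlapping members left out, other denominators, other count minimums, library totals and DESeq2 1.42.0 size factors, and each replicate left out; leaving out RNA5SP202 was added after the data were seen.

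Named were the RNA5S genes (range, highest, median, lowest), the 12 highest RNA5SP copies, the 5 highest 5.8S features, other rRNA features with counts, the 3 largest departures between replicates per direction, their overlapping genes, and the 2 to 3 highest genes per list. Members and gene lists were chosen with earlier results of these data known. Other software was Python 3.11.15, numpy 2.4.6, pandas 2.3.3, matplotlib 3.10.9 and R 4.3.3.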

Additional observations from a re-analysis of the deposited data

How the results depend on the processing

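Of 70 alternative values for the main results, 35 moved by less than the spread between replicates, or 1.5 times for counts, and 35 by more. Many of the 35 that moved less could not have moved more. They include means of 2 replicates with 1 left out, and shares without members overlapping a tRNA feature, of which there were 0. The cause of the moves was not tested, except that leaving features out lowers a share or its total by construction. The nuclear rRNA share of 0.0207% became 0.0195% in R2, 0.0204% over both tables, 0.00335% without members overlapping another gene, 0.0361% and 0.173% with the 10 highest features or the tRNA features left out of the total, and 0.00780% without RNA5SP202. In the same order, the RNA5S share of 0.00153% became 0.00267%, 0.00187%, with no overlap to leave out, 0.00267% and 0.0127%. The RNA5SP share of 0.0180% became 0.0165% in R2, 0.00166% without overlapping members, 0.0313% and 0.150% with these totals, and 0.00503% without RNA5SP202. The 5.8S share of 0.000154% became 0.000174% in R2, and 0.000268% and 0.00126% with these totals. The share of other rRNA features of 0.00108% became 8.43e-05% in R2, 0.000786% over both tables, 0% without overlapping members, and 0.00187% and 0.00874% with these totals.

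The number of members with counts, 212, was 54 at a mean of 10 and 3 at a mean of 100; it was 149 in R2. The share of the 3 highest members, 70.2%, was 68.7% in R2, 68.6% over both tables, 19.8% without overlapping members and 25.6% without RNA5SP202. R2 counts as a share of R1, 38.9%, were 35.8% over the members with a mean of 100 and 37.1% without RNA5SP202. The 20 members lower in replicate 2 became 1 with library totals, 5 in R2 and 35 over both tables, and the 0 higher became 4 with library totals. With either replicate left out, the shares were 0.0206 to 0.0209% (all), 0.00151 to 0.00155% (RNA5S), 0.0176 to 0.0183% (RNA5SP), 0.000143 to 0.000165% (5.8S) and 0.000971 to 0.00119% (other), 166 to 168 members had counts, the 3 highest took 69.3 to 71.0%, and R2 was 38.5 to 39.3% of R1; a mean of 2 values always moves by less than 1 SD this way. Of 96 alternative values for 24 named members, 28 moved by more than the spread, with 5 higher and 23 lower. The 96 include values with 1 replicate left out, which could not move by more than the spread. No paired analysis was possible because the series holds 1 group. Depth limits single copies: 3 counts, the limit that a count of 0 allows, are 0.107 and 0.146 CPM in R1.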

Other observations

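Reads on 5S copies were unevenly placed in other ways too. RNA5SP150 had 116 R2 counts in replicate 1 against 2 R1 counts there, and 5 against 4 in replicate 2, so its R2 level was 10.3 CPM in 1 library and 0.569 CPM in the other. RNA5SP429 and RNA5SP149 (both chosen after their values were seen) had R2 counts above R1 over both replicates, with 14 and 12 against 9 and 11, and 26 and 10 against 19 and 12. Copies without any R1 count held 8 and 19 R2 counts in all.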
